A study of Mus musculus with 4 samples.

Results

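Replication-dependent histone genes supply the histones that package newly copied DNA. The genes were taken by name from a table of transcript levels in mouse cardiac endothelial cells: every gene whose older mouse symbol starts with Hist, a cluster number from 1 to 4, the letter h and a histone type from 1 to 4. This rule gave 71 of the 45882 gene IDs in the table, with 6 linker histone H1 genes, 20 H2A, 20 H2B, 12 H3 and 13 H4 genes. Of the 71, 67 stood above the floor of 0.05 FPKM in at least 1 of the 4 libraries, 45 stood above it in all 4, and 4 were listed at 0.05 throughout. FPKM counts fragments of a gene per 1000 bases of transcript and per 1000000 fragments sequenced.

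Hearts of male mice were perfused, and their endothelial cells were selected with beads against the surface protein CD31 (Pecam1). The mice were wild type (WT) or Smad3 knockout (Smad3 KO, 129-Smad3tm1Par/J). The allele removes Smad3, which carries TGF-β signals to the nucleus, from all cells of the animal and not from endothelium alone. From the age of 7 weeks they received 4 weekly tail vein injections of doxorubicin (Dox, 5 mg/kg) or of saline, and cells were prepared 9 wk after treatment ended. The labels give an age of 20 weeks for all samples. The 4 groups were saline and Dox treatment of WT and of Smad3 KO mice, with 1 library each, so differences could not be checked on replicates and no test or p-value is given. How many animals a library holds is not given in the sources used here. Groups follow the sample titles, and a genotype tag goes against the title for the libraries titled Smad3 KO saline and WT Dox. Values of 4 libraries are given throughout in the order WT saline, WT Dox, then Smad3 KO saline, then Smad3 KO Dox. Smad3 itself stood at 2.95, 2.09, 1.02 and 0.848 FPKM, so the libraries titled Smad3 KO were the lower ones.

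Most mRNAs end in a poly(A) tail, but a replication-dependent histone mRNA normally ends just after a short stem-loop. The stem-loop is bound by Slbp, and the mRNA is cut after it with the help of the U7 small nuclear RNA. The genes lie in clusters without introns, are transcribed in S phase under Npat, and their mRNAs decay when DNA synthesis stops. Cells that have left the cell cycle take most new histones from replacement genes outside the clusters, whose mRNAs mostly carry a tail. Some clustered genes also give tailed mRNAs that continue past the stem-loop. A library made from tailed RNA holds few fragments of the tailless form. The sources used here call the libraries whole transcriptome and do not state whether tailed RNA was selected.

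The stem-loop was searched for in the annotated transcripts of the members (GENCODE release M21, GRCm38), as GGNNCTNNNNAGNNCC with arms that pair. It was found in 44 of the 69 members that matched this annotation (63.8%) and in 160 of 21886 other protein-coding genes (0.731%). Of the 65 protein-coding members, 15 have models with under 20 bases after the coding sequence, so the stem-loop could not be seen there. The 6 sequences below come from the members the results turn on, with the paired arms in capitals and the loop in lower case.
Hist1h1c (chr13:23739512-23739527, plus strand): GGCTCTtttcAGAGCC
Hist2h2aa1 (chr3:96246032-96246047, plus strand): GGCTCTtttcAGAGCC
Hist1h2bg (chr13:23571843-23571858, plus strand): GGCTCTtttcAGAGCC
Hist2h3c2 (chr3:96238485-96238500, minus strand): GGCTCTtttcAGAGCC
Hist1h4h (chr13:23531458-23531473, plus strand): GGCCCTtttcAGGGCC
Hist1h4b (chr13:23757366-23757381, plus strand): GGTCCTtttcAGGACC
The arm GGCTCT stood in all 4 H1, 11 H2A, 8 H2B and 9 H3 genes with a match and in no H4 gene. Of the H4 genes, 10 had the arm GGCCCT and 2 (Hist1h4b and Hist1h4j) had GGTCCT. The poly(A) signal AATAAA stood in the last 40 bases of the model of 15 of 69 members (21.7%), against 68.2% of other protein-coding genes.

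The promoters of the members also differed by histone type. RefSeq promoters (GRCm38.p6, 250 bases before to 50 after the start) matched 61 members and were searched on both strands. The letters CCAAT stood in all 6 H1, 17 H2A, 16 H2B and 10 H3 promoters but in 3 of 12 H4 promoters, against 37.8% of 26964 promoters of other genes. The octamer ATTTGCAT stood in 7 of 17 H2A and 6 of 16 H2B promoters, in no H1, H3 or H4 promoter, and in 1.71% of the others. TATAAA stood in 40% to 66.7% of the promoters of each type, against 14.1% of the others. Promoters of neighbouring H2A and H2B genes can overlap, so a site can count for both types. The octamer of Hist1h2bg, for example, also lies in the promoter of the H2A gene Hist1h2ae. None of the 3 patterns is part of another. The promoter of Hist1h2bg, the H2B gene with the highest mean level among those with a stem-loop, is shown because the octamer and TATAAA (both in capitals) lie close together in it.
Hist1h2bg promoter (chr13:23571341-23571362, plus strand): ATTTGCATagaacctcTATAAA

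Levels of the members were very uneven. The median of the 71 means over the 4 libraries was 0.688 FPKM. The 27 members whose mean reached 1 FPKM were used for differences, and 8 members reached a mean of 5 FPKM. The 5 highest members made up 66.7%, 65.7%, 68.7% and 56.0% of the summed FPKM of all members. The lowest member past 1 FPKM was Hist1h2ap with a mean of 1.04, and the highest below it was Hist1h2bq with 0.995.

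**Figure D1:**
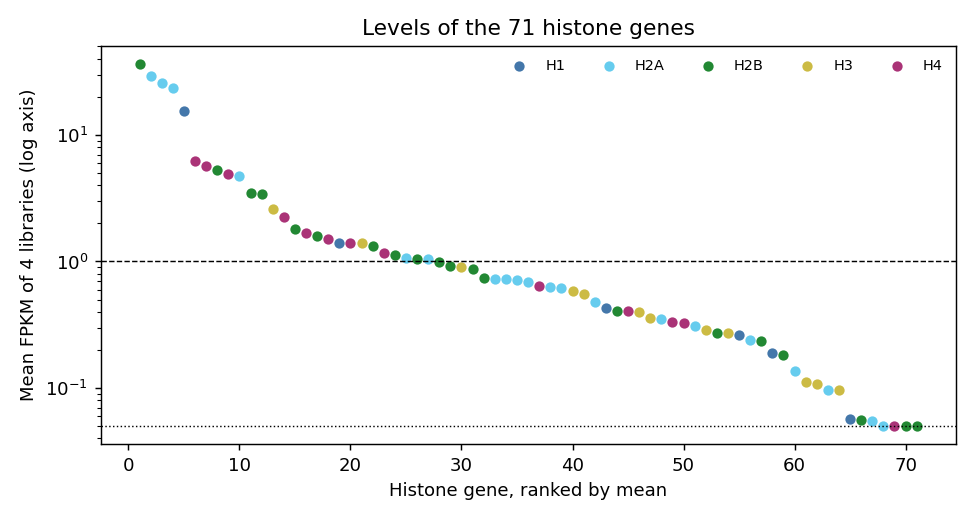
Mean FPKM of the 4 libraries (log axis) for each of the 71 histone genes, ranked from the highest to the lowest and coloured by histone type. The dashed line marks 1 FPKM and the dotted line the floor of 0.05; the first 5 genes stand apart from the rest, at means between 15.4 and 36.3 FPKM.

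Depth was estimated from the spacing of low FPKM in protein-coding genes with 1 transcript, as 28400000, 26450000, 26100000 and 21500000 fragments, so Smad3 KO Dox was the shallowest library. The fragment length fitted with it was 264 to 300 bases, and a doubled depth fits the same spacing. Fragment numbers below rest on these estimates and are given only for the 44 members with 1 annotated transcript of at least 450 bases. Intervals on them are 95% intervals for counting error between 2 libraries, not between animals. For shorter members a few fragments move FPKM a great deal.

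Among the H2B genes, whose product pairs with H2A in the nucleosome, Hist1h2bc was the highest member of all. It stood at 34.6, 35.8, 38.6 and 36.4 FPKM, which is 698.6 to 865 fragments per library. The highest library was 1.12 times the lowest. Its annotated transcript joins 2 exons over 8.7 kb (chr13:23684199-23692908, plus strand) and holds no stem-loop. Hist1h2bg, which codes the same protein, stood at 5.35, 5.49, 5.87 and 4.27 FPKM, from 32.6 fragments in Smad3 KO Dox to 52.1 in WT saline. The 4 values of Hist1h2bk were 3.65, 3.91, 3.18 and 2.90 FPKM, and those of Hist1h2bl were 3.60, 3.22, 4.35 and 2.78. These 4 genes were thus present in every library, and the 3 lower ones had their lowest value in Smad3 KO Dox.

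Among the H2A genes, most of the summed FPKM came from a near-identical group of 3. Hist2h2aa1 stood at 18.7, 20.7, 31.5 and 23.7 FPKM, Hist2h2aa2 at 22.8, 25.3, 36.8 and 31.1, and Hist1h2al at 18.5, 27.9, 28.1 and 27.6. Their sum was 60.1, 73.9, 96.4 and 82.5 FPKM, which is 87.1%, 89.0%, 88.0% and 81.0% of the summed H2A level. Hist2h2aa1 and Hist2h2aa2 lie on chromosome 3 and code the same protein, and all 528 bases of Hist2h2aa2 are found in Hist2h2aa1. Hist1h2al (chr13:51202727-51203065, minus strand) is annotated as a processed pseudogene, and its 339 bases differ from Hist2h2aa1 at 2 positions. The differences are T120C and G216T, with the base of Hist2h2aa1 first and positions counted from the first base of Hist1h2al. The stretches around both are shown because they hold the letters by which a read inside these 339 bases could be given to the pseudogene, with the differing base in capitals.
Hist2h2aa1, position 120 (chr3:96245700-96245729, plus strand): cgcggagcgtgtgggTgccggcgcgccggt
Hist1h2al, position 120 (chr13:51202932-51202961, minus strand): cgcggagcgtgtgggCgccggcgcgccggt
Hist2h2aa1, position 216 (chr3:96245796-96245825, plus strand): cgacaacaagaagacGcgcatcatcccgcg
Hist1h2al, position 216 (chr13:51202836-51202865, minus strand): cgacaacaagaagacTcgcatcatcccgcg
Of the 100-base stretches of Hist1h2al 19.2% are found in another gene, against 100% for Hist2h2aa2 and 95.9% for Hist2h2aa1, so the pair on chromosome 3 is the harder to tell apart in these values. Hist3h2a, an H2A gene of the third cluster, stood at 4.20, 4.59, 4.01 and 6.002 FPKM (193 to 243 fragments). None of its 100-base stretches was found in a gene that does not overlap it. In all libraries but Smad3 KO saline it had more fragments than Hist2h2aa1 (165 to 236) or Hist2h2aa2 (164 to 220). It was highest in Smad3 KO Dox, at 1.31 times WT Dox (1.09 to 1.57) and 1.498 times Smad3 KO saline (1.24 to 1.82). Trim17 overlaps it on the same strand.

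Linker histone H1 sits on the DNA between nucleosomes. Hist1h1c stood at 16.4, 15.9, 18.8 and 10.3 FPKM, or 597, 545, 620 and 287 fragments. Its differences were larger than counting error in Smad3 KO Dox, which stood at 0.645 times WT Dox (0.557 to 0.746) and 0.546 times Smad3 KO saline (0.473 to 0.629), while WT Dox and WT saline differed by a log2 value of -0.04. Neither difference reached a log2 size of 1. Hist1h1e moved the other way, at 0.824, 1.10, 0.852 and 2.88 FPKM, and its 103 fragments in Smad3 KO Dox stood against 36.2 to 48.2 in the other libraries. Hist1h2be and Gm11398 overlap Hist1h1e on the same strand, and Hist1h2be itself was lowest in Smad3 KO Dox, at 0.926, 1.06, 1.06 and 0.639 FPKM. The other H1 genes of dividing cells were near the floor, with Hist1h1a at 0.580, 0.1004, 0.557 and 0.490 FPKM and Hist1h1b above 0.05 only in WT saline, at 0.0757. Hist1h1d had a mean of 0.262 FPKM over a model of 7425 bases.

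All 13 H4 genes code the same protein of 103 residues. The highest were Hist1h4h at 3.38, 4.12, 7.20 and 10.2 FPKM (18.7 to 45.5 fragments) and Hist1h4i at 4.78, 5.79, 5.45 and 6.85 FPKM (60.9 to 70.4 fragments). Hist1h4h was higher in both Smad3 KO libraries than in both WT libraries. Hist1h4k stood at 0.159, 4.50, 3.69 and 11.3 FPKM and Hist1h4n at 0.532, 2.82, 1.87 and 3.76. Their models have 312 and 430 bases, so these levels rest on few fragments. Hist1h4d was lowest in Smad3 KO Dox, at 2.12, 1.47, 2.36 and 0.710 FPKM, with 13.4 fragments in Smad3 KO Dox and 33.9 to 52.1 elsewhere. Hist1h4c was listed at 0.05 in Smad3 KO saline and stood at 0.895, 2.18 and 2.88 FPKM in the other libraries, in order. Hist1h4b was listed at 0.05 in the same library and stood at 0.548, 1.23 and 2.84 FPKM in the others.

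H3 genes had the lowest sum of any type in each library, while the median of their means was 0.377 FPKM, against 0.347 for H1. Hist2h3c2 led them with 2.35, 2.30, 1.81 and 3.90 FPKM (34.0 to 63.5 fragments), and Hist2h3b followed with 0.950, 1.36, 0.805 and 2.48. Both were highest in Smad3 KO Dox, with 61.6% and 77.1% of their 100-base stretches shared with other genes. The remaining 10 H3 genes had means from 0.0963 to 0.908 FPKM. Among them Hist1h3i stood at 0.132, 0.101, 0.05 and 3.35 FPKM, a difference that did not enter the counts below because its mean was under 1.

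The 44 members below a mean of 1 FPKM included 30 below 0.5. Hist1h2bm, Hist1h4f, Hist2h2ab and the pseudogene Hist3h2bb-ps were listed at 0.05 in every library. The germ line members were near the floor as well. Hist1h1t, the linker histone of sperm precursors, stood at 0.05, 0.163, 0.05 and 0.499 FPKM, Hist1h2aa was above the floor only in Smad3 KO saline, at 0.811, and Hist1h2ba only in the Smad3 KO libraries, at 0.343 and 0.506. The symbol Hist2h2bb stands on 2 IDs, and 1 of them (mean 1.13 FPKM) is annotated as a long noncoding RNA that overlaps the coding gene (mean 1.79 FPKM) on the same strand. Of the members, 44 share their protein with another member, in 7 groups, and 25 have at least 50% of their 100-base stretches in another gene. Levels of these 25 depend on how the aligner divided shared reads, whereas 10 members have no stretch shared with a gene elsewhere. Genes that overlap a member were left out of this search. On the same strand 8 members are overlapped, among them Hist3h2a and both Hist2h2bb IDs, so their reads can be divided as well. Members with no shared stretch gave fragment numbers within 0.1 of a whole number for 8 of 14 values under 20, and members with over 50% shared for 4 of 24.

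**Figure D2:**
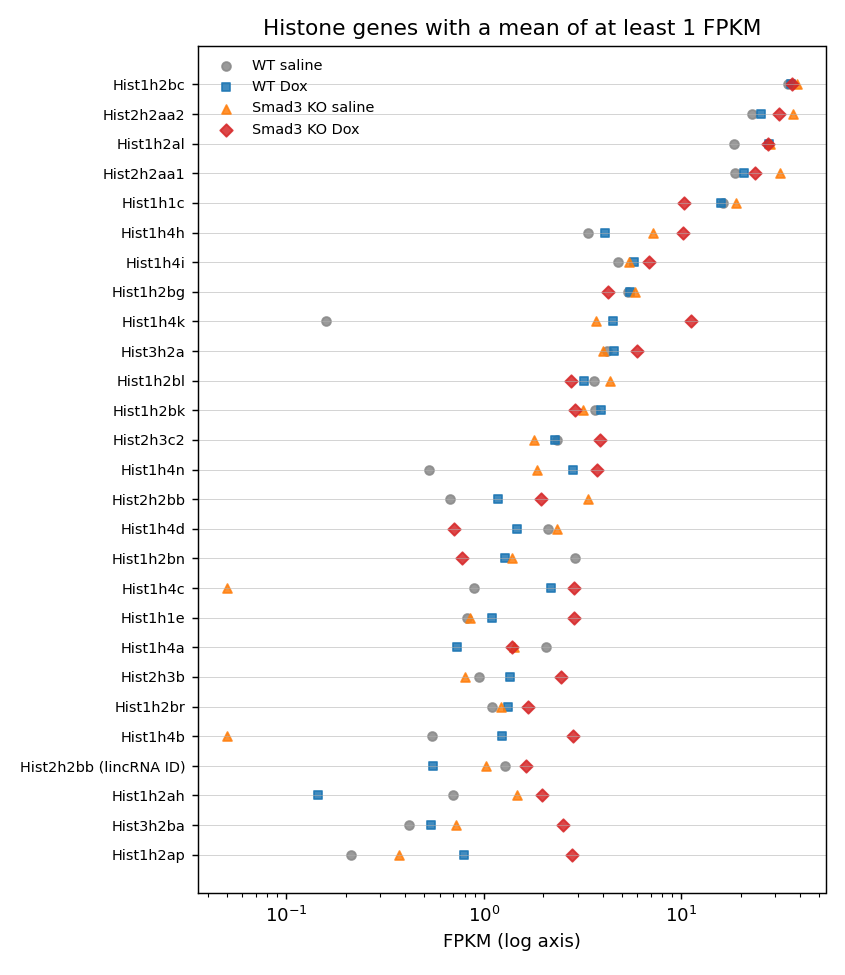
FPKM (log axis) of the 27 histone genes whose mean reached 1 FPKM, 1 point per library, with the highest gene at the top. The 4 points lie close together for Hist1h2bc (34.6 to 38.6 FPKM) and spread widely for low genes such as Hist1h4k (0.159 to 11.3 FPKM).

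Levels were set beside the annotated length past the stem-loop. Of the 44 members with a stem-loop, 22 have models that continue for 100 bases or more, and 10 of these had a mean of at least 1 FPKM, against 7 of the 22 with shorter models. The median levels were 0.736 and 0.497 FPKM. Hist1h1c (840 bases past the stem-loop), Hist3h2a (1643 bases) and Hist1h4i (330 bases) were high with long models, while Hist1h1d (4884 bases) and Hist4h4 (2445 bases, mean 0.335 FPKM) were low.

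Summed over all 71 members the level was 166, 191, 224 and 231 FPKM. Without the pseudogene Hist1h2al it was 148, 163, 196 and 203. The sum of FPKM over all genes also differed between libraries, from 509818 in WT saline to 666863 in Smad3 KO saline. As a share of it the members took 0.0326%, 0.0330%, 0.0336% and 0.0409%, highest in Smad3 KO Dox. The order of the libraries depended on the scale: the 44 members with fragment numbers had 92.5, 93.4, 104.1 and 105.6 fragments per 1000000, with Smad3 KO Dox at 1.01 times Smad3 KO saline (0.959 to 1.07), and median-ratio scaling put the sum of Smad3 KO Dox (217) below that of Smad3 KO saline (225). The mean log2 sum of the libraries titled Smad3 KO was 0.35 above that of the WT libraries. With genotype taken from the tag this difference was 0.12.

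The types did not move together. H4 stood at 15.6, 24.7, 23.0 and 43.1 FPKM, H3 at 6.06, 7.95, 4.77 and 11.9, H2A at 69.0, 83.0, 110 and 102, H2B at 57.7, 58.1, 65.8 and 59.0, and H1 at 18.0, 17.4, 20.7 and 14.8. In FPKM Smad3 KO Dox thus had the highest H4 and H3 sums and the lowest H1 sum, while H2B stayed within a narrow range. H4 took 18.7% of the members' sum in Smad3 KO Dox and 9.36% to 12.9% in the other libraries. Without Hist1h4k, whose model is the shortest, the H4 sums were 15.4, 20.2, 19.3 and 31.8 FPKM. By cluster, the 56 genes of Hist1 on chromosome 13 took 63.1% to 68.9% of the sum, and the 11 genes of Hist2 on chromosome 3 took 28.2% to 34.7%.

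Fragments of the longer members gave the same order for H4 in Smad3 KO Dox but not for WT Dox. The 8 H4 genes with fragment numbers had 7.12, 7.16, 6.89 and 10.8 fragments per 1000000. Smad3 KO Dox stood at 1.51 times WT Dox (1.24 to 1.84) and 1.57 times Smad3 KO saline (1.29 to 1.92), and WT Dox at 1.01 times WT saline (0.822 to 1.23). In FPKM the H4 sum of WT Dox was 1.58 times that of WT saline, and the 5 H4 genes without fragment numbers summed to 1.43 FPKM in WT saline and 9.79 in WT Dox. The 9 H3 genes gave 1.80 times Smad3 KO saline (1.32 to 2.48) in Smad3 KO Dox, and the 10 H2B genes 0.970 times (0.884 to 1.06). The 6 H1 genes had 23.2, 22.6, 27.8 and 22.8 fragments per 1000000. By fragments H1 was thus not lowest in Smad3 KO Dox, which stood at 1.01 times WT Dox (0.896 to 1.14). That order depends on Hist1h1d, a gene with a long model and a mean of 0.262 FPKM. Hist1h1d gave 15.3, 0, 63.9 and 89.3 of the H1 fragments.

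**Figure D3:**
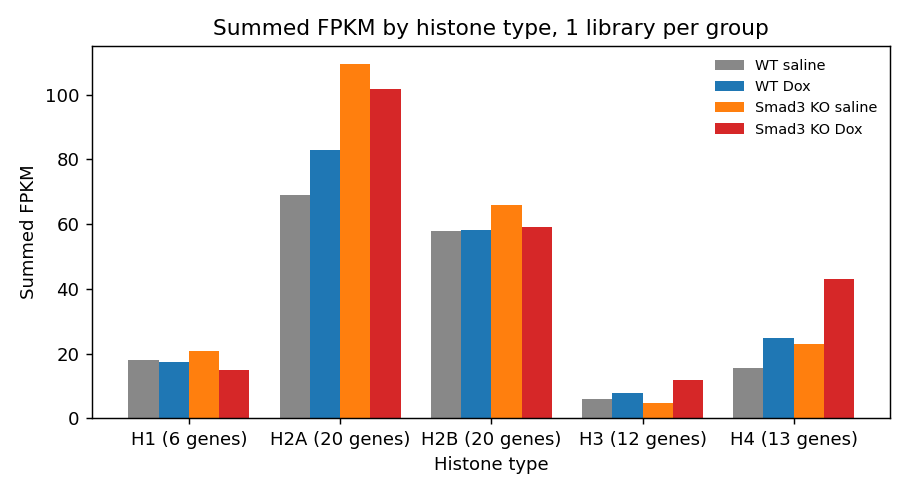
Summed FPKM of the members of each histone type (bars, from 0), with 1 bar per library and no error bars because each group has 1 library. H4 is highest in Smad3 KO Dox (43.1 FPKM), whereas H2B differs little (57.7 to 65.8 FPKM).

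Differences between libraries were taken on the log2(FPKM + 0.5) scale, which understates those of low genes, and the size rule asked for a difference of 1 or more, up or down. The 4 comparisons share libraries and are not independent of each other. Of the 27 members tested, 13 had at least 1 FPKM in every library. The other 14 were under 1 FPKM somewhere, and some passed the filter only through the library in which they were high, so the counts and medians below describe these 27 genes and not all 71.

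The first comparison set Dox against saline in WT cells 9 wk after treatment. Between WT Dox and WT saline, Hist1h4k (2.92) and Hist1h4n (1.69) were higher past the size rule and Hist1h4a, at 0.735 against 2.07 FPKM, was lower (-1.06). The other 5 H4 genes tested lay between -0.41 and 0.94. These 3 of 27 members (11.1%) compare with 3.72% of the 12325 genes tested, of which 1.03% were higher and 2.69% lower, and none of the 13 members with at least 1 FPKM throughout was among them. The median difference was 0.14, against -0.06 over all genes tested. Hist1h2bc (0.05), Hist1h1c (-0.04), Hist2h2aa1 and Hist2h2aa2 (both 0.14) were nearly level.

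Smad3 KO Dox against WT Dox compared the genotypes after the same drug. Here 7 of 27 members (25.9%) were higher past the size rule and none was lower, against 9.92% of all genes in either direction, 6.17% higher and 3.75% lower. They were Hist1h2ah (1.94), Hist3h2ba (1.53), Hist1h2ap (1.35), Hist1h4k (1.24), Hist1h4h (1.21), Hist1h1e (1.08) and the noncoding Hist2h2bb ID (1.02). Of these Hist1h4h alone had at least 1 FPKM in all libraries, at 2.48 times WT Dox (1.46 to 4.33) with 45.5 against 22.1 fragments. The lowest differences were those of Hist1h4d (-0.70) and Hist1h1c (-0.61). Hist3h2ba, an H2B gene of the third cluster with 4.85% of its 100-base stretches shared, had 19.0 fragments against 4.97. The median over the 27 was 0.35, against 0.12 over all genes. It was 0.19 over the 13 members with at least 1 FPKM throughout, and over the 8 members with a mean of at least 5 FPKM it was 0.107, against 0.113 over all genes with such a mean.

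Smad3 KO Dox against Smad3 KO saline compared treatments within the knockout. Higher past the size rule were 7 members: Hist1h4c (2.62), Hist1h4b (2.60), Hist1h2ap (1.91), Hist1h4k (1.49), Hist1h1e (1.32), Hist3h2ba (1.30) and Hist2h3b (1.19). Hist1h4d was lower (-1.24). These 8 of 27 (29.6%) compare with 6.86% of all genes, of which 4.02% were higher and 2.84% lower. The sizes for Hist1h4c and Hist1h4b depend on a library in which both were listed at 0.05. Hist1h4d had 13.4 against 51.7 fragments and no shared stretch, at 0.301 times Smad3 KO saline (0.152 to 0.557). The median over the 27 was 0.32, against 0.05 over all genes, but it was -0.08 over the 13 members with at least 1 FPKM throughout, none of which passed the size rule here.

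Smad3 KO saline against WT saline compared the genotypes without the drug. Hist1h4k (2.67), the coding Hist2h2bb (1.72) and Hist1h4n (1.20) were higher past the size rule and Hist1h4c (-1.34) was lower. That is 4 of 27 members (14.8%), against 4.72% of all genes, of which 1.7% were higher and 3.03% lower. None of the 13 members with at least 1 FPKM throughout passed, although Hist1h4h (0.99), Hist2h2aa1 (0.74) and Hist2h2aa2 (0.68) were near it. Hist2h2aa1 stood at 1.68 times WT saline (1.37 to 2.07 for counting error, with reads shared between the copies). The median was 0.16, against -0.01 over all genes.

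**Figure D4:**
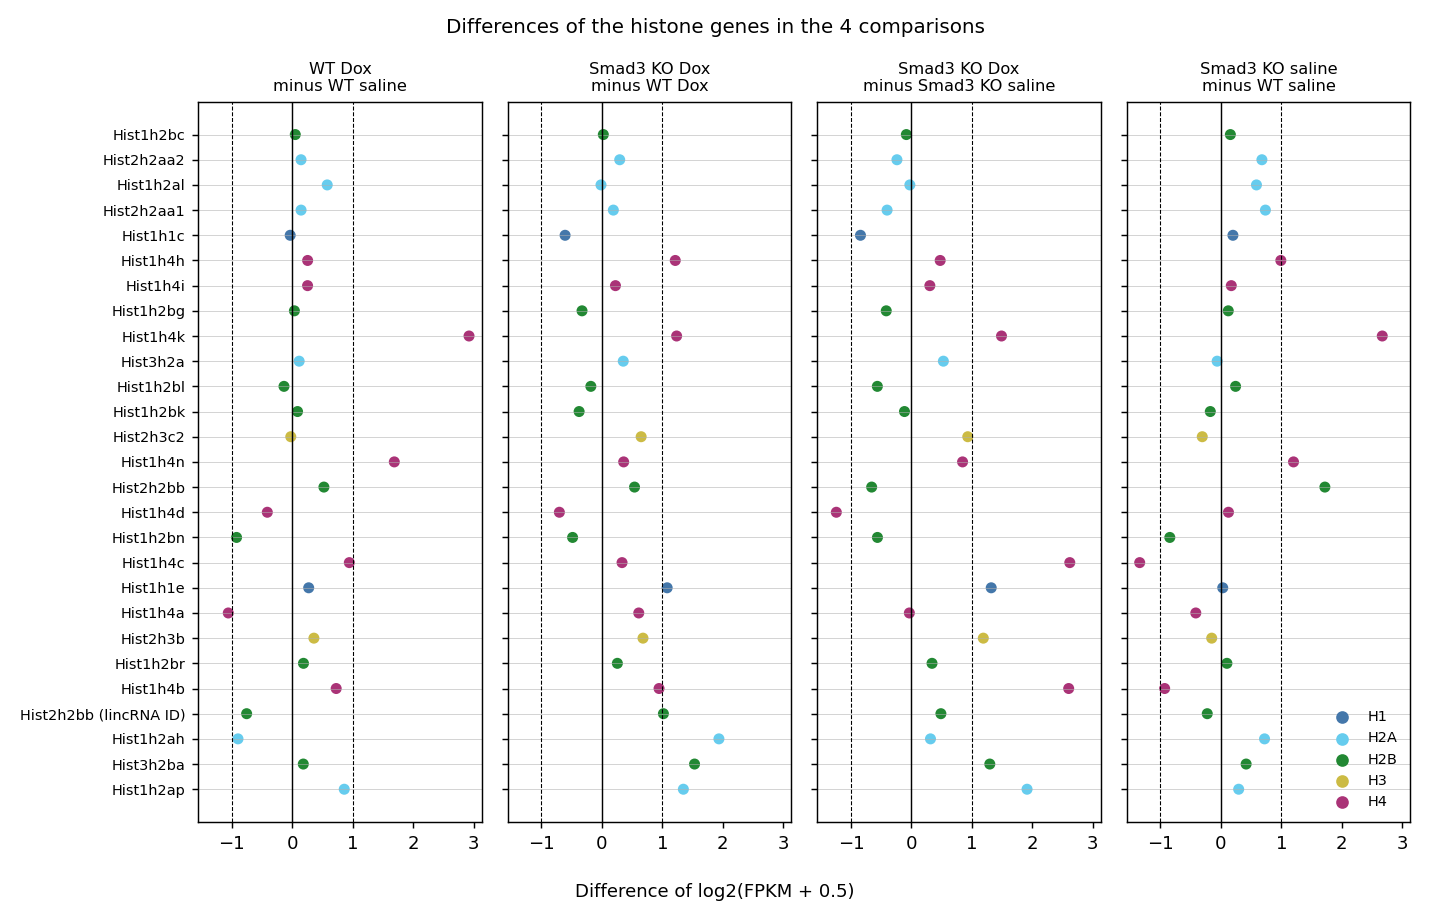
Differences of log2(FPKM + 0.5) for the 27 histone genes in the 4 comparisons, in order of mean level with the highest gene at the top and coloured by histone type. Dashed lines mark the size rule of 1; most points beyond them belong to genes in the lower rows, and Hist1h2bc at the top lies within 0.16 of 0 in each panel.

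Short genes as a class passed the size rule often. Among the 60 other protein-coding genes tested that have 1 transcript of at least 300 and under 700 bases, 15%, 35.0%, 23.3% and 16.7% passed in the same order of comparisons. In Smad3 KO Dox against WT Dox 10 of the 60 were higher and 11 lower, while the 7 histone members were all higher. Of those 7, Hist3h2ba and Hist1h2ap reached 1 FPKM only in Smad3 KO Dox, so they passed the filter only through it. Without the filter 14 of the 71 members were higher past the size rule in this comparison and 4 lower. The difference between the short genes and the histone members was not tested.

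RNAs without a poly(A) tail were looked at beside the members, since a selection of tailed RNA would act on both. Whether there was such a selection is not stated. Rn7sk, the small nuclear RNA that holds back the elongation factor P-TEFb, stood at 499, 685, 931 and 1067 FPKM. Rmrp, the RNA of a ribosomal RNA processing enzyme, stood at 81.3, 93.3, 78.5 and 131 FPKM. Rpph1, the RNA of RNase P, stood at 2.13, 0.05, 6.46 and 6.14 FPKM. Terc, Rny1, Rny3, Rnu11 and Rnu12 were listed at 0.05 in all libraries, so 3 of the 8 RNAs of this list could be followed. Rpph1 was highest and Rmrp lowest in Smad3 KO saline, whereas Rn7sk and the H4 sum were lowest in WT saline. Rn7sk, Rmrp and the summed H4 genes were each highest in Smad3 KO Dox. Markers of red blood cells were highest there too, in all 6 of 6 genes, with a summed level of 4423, 4384, 10289 and 28548 FPKM. Macrophage markers were lowest there in all 6 of 6 genes, with sums of 385, 391, 216 and 124 FPKM. Endothelial markers were present throughout, at sums of 1957, 1915, 1907 and 1501 FPKM, and 1 of the 8 passed the size rule, Cdh5 (475, 372, 341 and 168), lower in Smad3 KO Dox in both of its comparisons. Against WT Dox 9.92% of all genes tested passed, and against Smad3 KO saline 6.86%. Of the 8 endothelial markers 2 were above 0 in Smad3 KO Dox against WT Dox (median -0.27, all genes tested 0.12). Against Smad3 KO saline 1 was above 0 (median -0.28, all genes tested 0.05). Emcn was level, at 166, 161, 165 and 162 FPKM, and Cldn5 was highest in Smad3 KO Dox, at 137, 155, 119 and 180. The part of these cell types, of the tailless RNAs and of depth in the H4 difference was not tested, and in bulk cells more cells of a type cannot be told apart from more RNA per cell.

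Of the 15 genes listed for making and processing histone mRNA 14 were tested, and none passed the size rule in any comparison. The share over all genes tested was 3.72% to 9.92%. Npat, the S phase activator of histone gene transcription, stood at 2.58, 2.88, 2.22 and 1.75 FPKM, and its partner Casp8ap2 at 4.10, 2.98, 2.57 and 2.19. Hinfp, which binds H4 promoters, stood at 2.37, 1.83, 2.00 and 1.75 FPKM. These 3 were lowest in Smad3 KO Dox, Hinfp at 1.75 FPKM against 1.83 in WT Dox. Of the factors below, Lsm11, Sympk, Cpsf2, Cstf2, Srrt and Upf1 were lowest there as well. Lsm10, Cpsf3, Eri1 and Ncbp1 were highest there. A relation of these factors to the H4 sum was not tested. Slbp, the stem-loop binding protein, stood at 26.98, 15.8, 20.1 and 22.2 FPKM and was lowest in WT Dox. Lsm10, a ring protein of the U7 particle, came nearest to the size rule, at 5.97, 7.01, 7.20 and 14.5 FPKM (a difference of 0.998 against WT Dox), while its partner Lsm11 stood at 1.35, 1.43, 1.24 and 1.05. Zfp473, a zinc finger protein of the U7 particle, was not tested, with a mean of 0.552 FPKM.

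The cleavage factors shared with other mRNAs were higher, with Sympk at 31, 30.7, 37.6 and 25.8 FPKM, Cpsf3, the nuclease, at 12.2, 13.7, 15.4 and 18.5, Cpsf2 at 4.89, 4.82, 4.29 and 4.25, and Cstf2 at 13.8, 12.6, 13.7 and 12.2. Of the factors for cap binding, Srrt stood at 54.1, 41.9, 30.9 and 29.6 FPKM and Ncbp1 at 10.95, 10.4, 11.5 and 14.7. Of those for decay, Eri1, which trims the stem-loop end, stood at 3.55, 3.47, 3.69 and 4.74 FPKM and Upf1 at 16.4, 17.4, 14.1 and 10.3. The medians of the list were -0.02, -0.11, -0.11 and -0.13 in the 4 comparisons.

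Replacement histone genes are not limited to S phase and mostly have tailed mRNAs. They summed to 1105, 1003, 1082 and 1419 FPKM over 11 genes, most of it from H3f3a and H3f3b. H3f3a stood at 349, 396, 403 and 618 FPKM and H3f3b, which codes the same H3.3 protein, at 505, 353, 424 and 470. H2afz stood at 96.0, 93.9, 81.8 and 108 FPKM, H2afv at 26.98, 31.9, 28.9 and 36.1, H2afx, the H2A.X gene of the DNA damage mark, at 32.8, 31.5, 45.6 and 37.8, and H2afj at 7.20, 11.2, 7.25 and 10.3. The macroH2A genes H2afy and H2afy2 stood at 44.8, 47.96, 46.3 and 59.7 FPKM and at 2.26, 2.63, 3.004 and 3.36. H1f0, the linker histone of resting cells, stood at 35.2, 30.0, 39.2 and 67.1 FPKM and H1fx at 0.862, 1.31, 1.13 and 1.27. Past the size rule were H1f0 in Smad3 KO Dox against WT Dox (1.15) and Cenpa, the centromere H3, at 3.8, 2.66, 2.48 and 8.30 FPKM, in Smad3 KO Dox against WT Dox (1.48) and against Smad3 KO saline (1.56). Of the 11 genes 2 and 1 passed in these comparisons, against 9.92% and 6.86% of all genes tested. H1f0 and Hist1h1c thus differed in opposite directions in Smad3 KO Dox.

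Histone chaperones, which hand histones to DNA, gave no call among the 17 tested in any comparison. Over all genes tested 3.72% to 9.92% passed, by comparison. Nap1l1 stood at 67.7, 69.0, 77.5 and 72.5 FPKM and Ssrp1, a subunit of the FACT complex, at 39.2, 41.5, 49.98 and 52.4. Of the DNA replication list 17 of 26 genes were tested, and 1 passed once, Pold1 (7.48, 6.96, 5.98 and 13.1 FPKM) in Smad3 KO Dox against Smad3 KO saline (1.07). In that comparison 6.86% of all genes tested passed. The list summed to 187, 139, 164 and 190 FPKM, close in WT saline and Smad3 KO Dox. In Smad3 KO Dox against WT Dox 13 of the 17 tested were above 0, as were 7121 of all 12325 genes tested. The medians were 0.32 and 0.12. Pcna, the sliding clamp, was highest in WT saline, at 83.7, 49.99, 62.5 and 72.7 FPKM, and the helicase subunit gene Mcm5 in Smad3 KO Dox, at 4.37, 3.81, 5.12 and 6.52. Mitosis genes summed to 29.2, 14.7, 11.7 and 16.6 FPKM and were highest in WT saline, with Top2a at 3.24, 1.25, 1.46 and 1.34 and Cdk1 at 3.47, 1.65, 1.52 and 1.62. Of the 8 mitosis genes tested, 3 were lower in WT Dox and 4 in Smad3 KO saline than in WT saline past the size rule. Over all genes tested 2.69% and 3.03% were lower. Mki67, at 2.35, 1.07, 0.640 and 0.801 FPKM, passed the filter largely through WT saline. Aurkb, a mitotic kinase, was higher past the size rule in Smad3 KO Dox against WT Dox (1.30) and against Smad3 KO saline (1.16). There 6.17% and 4.02% of all genes tested were higher.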

How the data were processed

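RNA of CD31-selected cardiac endothelial cells was sequenced in 4 libraries, 1 per group. The authors deposited FPKM per gene and library. The submitters' notes name CASAVA, STAR and GRCm38.p4, without tool versions, whereas the study's own methods list Cufflinks after TopHat alignment to a human build, so the aligner is uncertain. The sources used here give neither strand nor annotation. The table held 45952 lines for 45882 IDs. Lines of 1 ID were summed (51 IDs), and 1 value below 0.05 was set to 0.05. No per-sample column was left unused.

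Differences of log2(FPKM + 0.5) were taken among 12325 genes whose mean reached 1 FPKM, and a size of 1 was called. With 1 library per group no test was run. The histone genes and all lists were chosen with earlier results of these data known. Named genes were the 15 highest members, up to 5 highest and 5 lowest calls per comparison, members next to the filter, germ line members, all histone mRNA factors and replacement variants, Smad3 and up to 4 genes of every other list. Hist1h1a, Hist1h1b, Hist1h1d, Hist1h2be, Hist1h3i, Hist4h4, Hist1h4j and the 4 members at the floor were named after their values were seen. Chromosome positions, models and shared 100-base stretches come from GENCODE release M21 (GRCm38, 69 of 71 IDs matched, 2 did not), and promoters from RefSeq (GRCm38.p6). Depth was fitted to genes of 600 to 3000 bases with values of 0.05 to 0.25 FPKM, 349 to 359 per library, and 79.7% to 83.2% of these values came within 0.1 of a whole fragment. The depth fit and, at a single transcript length, the size rule were tested on simulated data, and the other steps were not. The software was Python 3.11.15, pandas 2.3.3, numpy 2.4.6 and scipy 1.17.1. Alternatives were another pseudocount, filter, scaling, member set, or genotype label. 1 marker of red blood cells in the lists is not reported here.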

Additional observations from a re-analysis of the deposited data

How the results depend on the processing

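The counts of members past the size rule depended on low genes. In the order of comparisons used above they were 3, 7, 8 and 4. They became 9 in the first comparison and 7 in the last with a pseudocount of 0.1, 2 in the last with a pseudocount of 1, and 9 in the first where only values at the floor were replaced. Without a filter they were 8, 18, 17 and 7, and with a mean of at least 5 FPKM 0, 1, 0 and 0, of 8 members. With libraries rescaled to a sum of 1000000 they were 10, 15, 15 and 7 of 39 members. With identical proteins counted once they were 1 in the first, 4 in the third and 1 in the last comparison. In alternatives chosen after seeing the data, transcripts of at least 450 bases gave 1 in the first and 1 in the last, and members with at least 1 FPKM throughout gave 0, 1, 0 and 0. The cause was not tested beyond the smaller or larger sets these settings use.

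The medians kept their sign in 44 of 48 alternatives. The median of Smad3 KO Dox against Smad3 KO saline was -0.16 with a mean of at least 5 FPKM and -0.083 among members with at least 1 FPKM throughout. With a sum of 1000000 the median of WT Dox against WT saline was -0.038 and that of Smad3 KO saline against WT saline -0.14. This scaling also moved the medians of all genes tested, to -0.24, 0.17, 0.29 and -0.38, and relative to those the members stayed higher. Summed member levels at a sum of 1000000 were 326, 330, 336 and 409. Median-ratio scaling gave 199 for WT Dox and 217 for Smad3 KO Dox, below the 225 of Smad3 KO saline, and upper-quartile scaling gave 242 for Smad3 KO Dox. Genotype by the tag gave 0.12 in place of 0.35 for the summed level. No paired analysis was possible because each group has 1 library and no test was run. Precision is limited by fragments: 5 members had at least 100 in every library.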
